A study of Mus musculus with 12 samples.

Results

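The 10 genes described here are Fgf4, its receptors Fgfr1 and Fgfr2, and genes that ERK signalling induces or that restrain it, namely Dusp4, Dusp6, Spry2, Spry4, Spred1, Etv4 and Etv5. They were taken by gene symbol from a deposited table of 19716 genes, and all 10 were found, each in 1 row. The cells were mouse embryonic stem cells (ESC) of passages 8-15 that carry HA-Flag-AGO2 under doxycycline control, grown on gelatin in serum with leukemia inhibitory factor (LIF). Cells received doxycycline (dox) at 2.5 ug/ml for the 15 h before harvest to induce the transgene, and uninduced cells of the same line served as controls, so that every group carried the transgene. RNA was taken either from a nuclear fraction or from lysed whole cells (total RNA). The groups are called nuclear dox and nuclear no dox, and likewise total dox and total no dox. The labels list 12 libraries, 3 in each of these groups, and do not say whether they came from separate cultures or whether the line is 1 clone, so that the p-values below measure the spread between libraries, which may be technical.

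Fibroblast growth factor 4 (FGF4) is secreted by ESC and acts back on them. It binds FGF receptors together with heparan sulfate, the receptor kinase recruits adaptors that load RAS with GTP, and RAF, MEK and ERK kinases are then activated in turn. In ESC this pathway moves cells out of the naive state, and in the early embryo it sorts inner cell mass cells between epiblast and primitive endoderm. ERK also limits itself: it induces the phosphatases DUSP4 and DUSP6 and the Sprouty proteins, and the ETS factors ETV4 and ETV5 are widely used as transcriptional readouts of the pathway.

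The deposited values are group means of log2(RPKM + 0.001), where RPKM is a gene's read count scaled by gene length and library size, and single libraries were not used here. The deposited p-values were those of 10 libraries in the fit, 3 of nuclear dox, 2 of nuclear no dox, 2 of total dox and 3 of total no dox. The steps between low values gave depths of 10.3 to 11.2 M reads for the dox-labelled libraries of nuclear RNA and 10.96 to 11.8 M for those of total RNA, against 15.6 to 18.9 and 15.3 to 16.9 M in the no-dox libraries, so each of the 5 dox-labelled libraries in the fit was shallower than each of the 5 no-dox ones. Ago2, the gene to be induced, went against the dox label: it averaged 2.39 RPKM in nuclear dox, 8.65 in nuclear no dox, 3.43 in total dox and 9.12 in total no dox. Whether transgene reads are counted at this gene is not given in the sources used here, and all directions below hold for the columns as labelled. All 10 ESC markers were measured, with summed levels of 2560, 903, 4220 and 1790 RPKM in the same order of groups. Dppa5a, the highest, made up 1800, 617, 3390 and 1390 RPKM of these sums. By the calls described below, 7 of the 10 were higher and 1 (Tdgf1) lower with the dox label in nuclear RNA, and 8 and 1 in total RNA. Removal of the trend on exon length, given next, made these counts 4 and 4, and 5 and 2. The shares over all tested genes are given below with the pathway lists. The dox-labelled columns also differed by exon length: from the shortest to the longest decile of genes the median log2 change ran from 0.98 to -0.83 in nuclear RNA and from 0.66 to -0.60 in total RNA. A curve was therefore fitted to that trend by robust local regression (loess). Values relative to the curve are given beside the dox changes of the 9 tested genes and for the pathway lists. Where a gene is set against genes of like exon length, the curve's value at that length is meant. What the trend stems from was not tested.

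Promoter sequences from RefSeq on GRCm38.p6, from 250 bases before to 50 after a transcript's start, were matched to 6 of the 10 genes, with 7 promoters because Etv5 has 2 starts in that table. Those of Dusp6, Etv5, Spry2 and Spred1 are shown. The first 3 of these genes were higher and Spred1 lower in the dox-labelled total RNA. The promoter of Fgf4, which was also lower there, was matched but is not shown. Capitals mark matches on either strand to an ETS core (CCGGAA), a CRE (TGACGTCA), an AP-1 site (TGANTCA), a GC box (GGGCGG) or a CCAAT box (CCAAT); on the other strand the GC box reads CCGCCC and the CCAAT box ATTGG. The sequences lie at chr10:99262981-99263280 on the plus strand (Dusp6), chr16:22439521-22439820 on the minus strand (Etv5, the upstream start), chr14:105896770-105897069 on the minus strand (Spry2) and chr2:117120821-117121120 on the plus strand (Spred1).
Dusp6: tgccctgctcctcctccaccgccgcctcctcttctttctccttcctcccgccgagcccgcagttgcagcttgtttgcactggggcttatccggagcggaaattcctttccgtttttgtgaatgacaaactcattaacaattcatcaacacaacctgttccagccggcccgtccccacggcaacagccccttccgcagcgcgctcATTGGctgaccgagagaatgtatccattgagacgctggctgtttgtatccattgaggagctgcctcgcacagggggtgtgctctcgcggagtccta
Etv5: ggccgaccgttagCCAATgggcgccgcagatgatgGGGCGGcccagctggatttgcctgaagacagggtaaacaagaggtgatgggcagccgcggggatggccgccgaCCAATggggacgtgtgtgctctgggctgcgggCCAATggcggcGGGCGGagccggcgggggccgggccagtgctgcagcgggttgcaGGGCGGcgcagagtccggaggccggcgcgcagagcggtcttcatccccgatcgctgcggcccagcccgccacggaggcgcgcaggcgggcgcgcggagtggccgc
Spry2: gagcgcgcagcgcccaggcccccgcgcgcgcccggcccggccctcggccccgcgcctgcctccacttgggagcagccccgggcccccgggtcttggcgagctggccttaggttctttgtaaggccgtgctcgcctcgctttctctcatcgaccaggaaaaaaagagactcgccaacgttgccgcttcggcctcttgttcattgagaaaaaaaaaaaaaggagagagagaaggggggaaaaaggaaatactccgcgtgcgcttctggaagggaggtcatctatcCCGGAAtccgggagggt
Spred1: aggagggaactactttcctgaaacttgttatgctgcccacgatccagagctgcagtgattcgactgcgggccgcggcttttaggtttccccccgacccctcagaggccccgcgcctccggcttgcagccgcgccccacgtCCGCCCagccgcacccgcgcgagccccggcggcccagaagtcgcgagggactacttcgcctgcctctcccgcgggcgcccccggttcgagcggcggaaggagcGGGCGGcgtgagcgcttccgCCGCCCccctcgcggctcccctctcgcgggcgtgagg
The single match to the ETS letters CCGGAA in the 7 promoters was that of Spry2, 33 bases after the start, and 14.9% of 32851 RefSeq promoters hold one. Other forms of the ETS site were not searched for, so the other promoters are not shown to lack one. Etv5 held 3 GC boxes and 3 CCAAT boxes in the promoter shown, Spred1 held 3 GC boxes, and Dusp6 held a CCAAT box 46 bases before its start. The Fgf4 promoter held 2 GC boxes and 1 CCAAT box, at a GC content of 69.7%. A GC box is found in 35.7% and a CCAAT box in 37.4% of all promoters. No CRE (1.79% of all promoters) and no AP-1 letters (7.81%) were in the 7 windows. Promoter GC content was 57.3% for Dusp6, 74% for Etv5, 62.7% for Spry2 and 72.3% for Spred1, against a median of 52.7% over all promoters.

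Fgf4 was the highest of the 10 genes in both total groups and in nuclear no dox, and Fgfr2 was below 1 RPKM in every group. In total no dox, Fgf4 stood at 60.5 RPKM, followed by Fgfr1 (12.4 RPKM), Etv5 (7.94), Spred1 (7.26), Spry4 (3.71), Spry2 (2.30), Dusp6 (2.14), Etv4 (1.63), Fgfr2 (0.354) and Dusp4 (0.248). In that order the differences within 2 SE were those between Etv5 and Spred1, between Spry2 and Dusp6, and between Fgfr2 and Dusp4. In nuclear dox, Etv5 (20.1 RPKM) and Fgf4 (20.1 RPKM) shared the first place, 0.002 apart on the log2 scale with an SE of 0.12. Among the genes tested, Fgf4 reached the 98.1th percentile of levels in total no dox and the 89.8th in nuclear dox. The lowest tested gene, Dusp4, was at the 0.706th percentile in total no dox and the 49.3th in nuclear dox. A gene was tested if at least 1 group averaged 1 RPKM; 9 of the 10 genes passed, Dusp4 through its nuclear groups alone, and Fgfr2 did not.

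**Figure D1:**
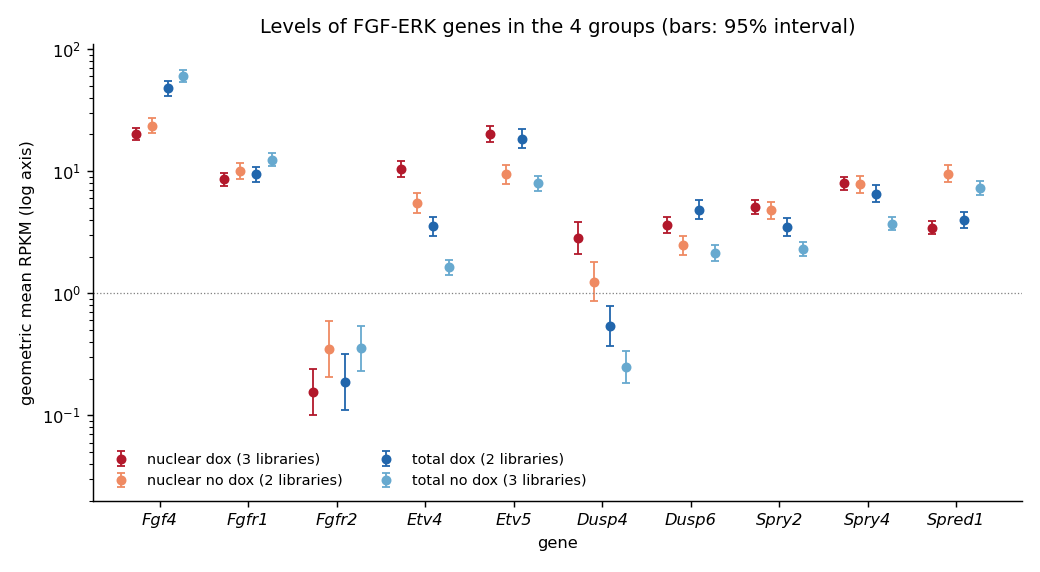
Geometric mean RPKM of each gene (log axis) in the 4 groups, with bars for the 95% interval from the residual spread and a dotted line at 1 RPKM. Fgf4 lies near 20 RPKM in nuclear and 48 to 60 RPKM in total RNA, Fgfr2 stays below 1 RPKM throughout, and Etv4 and Dusp4 stand higher in both nuclear groups than in both total groups.

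The comparison of dox with no dox is one between columns as labelled, and Ago2 itself was lower in the dox-labelled ones. Whether the changes below stem from induction of AGO2 was not tested. Every group carried the transgene, so an effect of dox itself cannot be told apart either. In the dox-labelled total RNA, the ETS factors, both phosphatases and both Sprouty genes were higher, by 1.52-fold to 2.32-fold, while Fgf4, Fgfr1 and Spred1 were lower, by 1.27-fold to 1.82-fold. In nuclear RNA the ETS factors and phosphatases were higher and Spred1 was lower, and the other 4 tested genes did not pass. Genes were called where limma gave an adjusted p (Benjamini-Hochberg, over 10197 genes) below 0.05. In total RNA 6 of 9 tested members were higher and 3 lower, where 41.5% of all tested genes were called higher and 22.8% lower; their median log2 change was 0.82, and that of all tested genes 0.26. In nuclear RNA 4 of 9 were higher and 1 lower, where 43.1% of all genes were called higher and 26.3% lower; the members' median was 0.097 and that of all genes 0.28. The share of members called higher in nuclear RNA was thus near that of all genes. The excess in total RNA depended on the filter. A minimum of 5 RPKM in at least 1 group leaves out Dusp4 and Dusp6. With it 4 members were higher and 3 lower in total RNA, where 63.2% and 17.9% of all genes were. The median log2 change of all genes was then 0.73. Removal of the exon length trend left 3187 genes higher and 3090 lower in nuclear RNA and 3132 higher and 2915 lower in total RNA, against 4394 and 2679, and 4233 and 2323, as deposited.

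**Figure D2:**
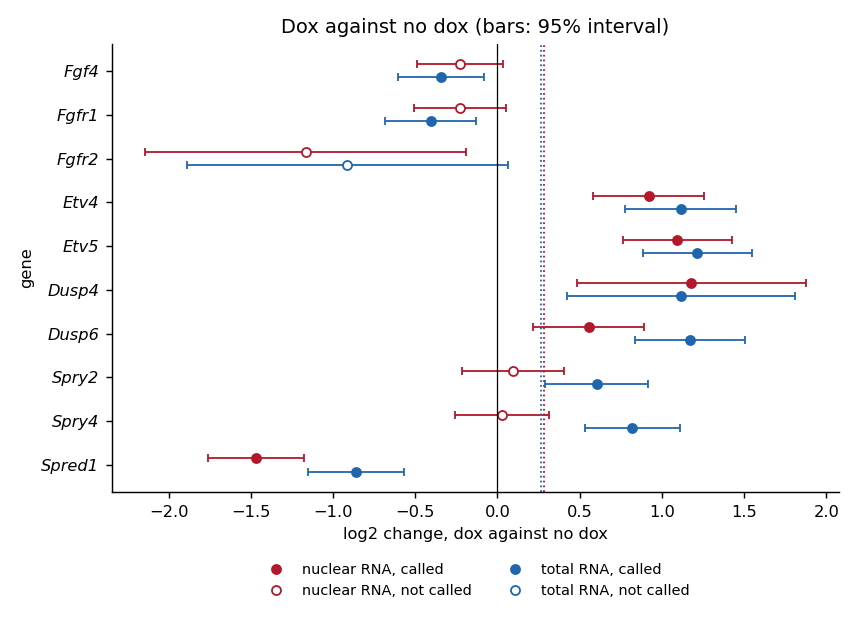
Log2 change from no dox to dox for each gene in nuclear (red) and total RNA (blue), with 95% intervals; filled points were called, and dotted lines mark the median of all tested genes, 0.28 and 0.26. Etv4, Etv5, Dusp4 and Dusp6 lie right of 0 in both kinds of RNA, Spred1 lies left of it in both, and Spry2 and Spry4 lie near 0 in nuclear RNA alone.

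Fgf4, the ligand (chromosome 7, 144847367-144865243, plus strand, 3195 bp of exon; GENCODE on mm10, as are all gene positions here), averaged 20.1 RPKM in nuclear dox, 23.6 in nuclear no dox, 47.7 in total dox and 60.5 in total no dox. The total groups were high and the nuclear groups low, and within each kind of RNA the dox-labelled mean was the lower one. In total RNA Fgf4 fell 1.27-fold with the dox label (log2 -0.34, SE 0.12, adjusted p = 0.0237), a call that ended when variances were moderated without a trend (adjusted p = 0.0567). In nuclear RNA the log2 change was -0.23 (95% interval -0.49 to 0.033, adjusted p = 0.108). Genes of like exon length had a median change of 0.60 in nuclear and 0.52 in total RNA, so that relative to them Fgf4 was at -0.83 and -0.86, lower in both (adjusted p = 6.23e-05 in nuclear RNA). RNA of the whole culture was sequenced, so fewer cells that express a gene and less RNA per cell cannot be told apart, here and for the genes below.

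Fgfr1, the receptor through which ESC mainly respond to FGF4 (chromosome 8, 25513654-25575718, plus strand, 9875 bp of exon), averaged 8.61 RPKM in nuclear dox, 10.1 in nuclear no dox, 9.40 in total dox and 12.4 in total no dox. The means spanned less than those of any other tested gene of the 10, with total no dox the highest. In total RNA it fell 1.32-fold (log2 -0.41, SE 0.13, adjusted p = 0.0138). Its change in nuclear RNA was -0.23 (95% interval -0.51 to 0.05, adjusted p = 0.13). Genes of like exon length changed by a median of -0.46 in nuclear and -0.31 in total RNA, and relative to them Fgfr1 was at 0.23 and -0.10 with no call in either. Relative to genes of like length and GC content it was called lower in both, at -0.32 (adjusted p = 0.046) and -0.53 (adjusted p = 0.00336), and centring (-0.37) and quantile normalization (-0.95) also called it lower in nuclear RNA. Of its exon bases, 164 (1.66%) also belong to the antisense gene Gm16159, and whether counting used strand is not given in the sources used here.

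Fgfr2, the receptor known from primitive endoderm and trophoblast (chromosome 7, 130162451-133123350, minus strand, an annotated span that reaches into Ctbp2 and shares 314 of its 10328 bp of exon with it), averaged 0.156 RPKM in nuclear dox, 0.351 in nuclear no dox, 0.188 in total dox and 0.354 in total no dox, which is about 7.45, 26.7, 9.45 and 25.1 reads per library. Both dox-labelled means were the low ones, at few reads. Without the filter on low values its log2 change was -1.17 in nuclear RNA (95% interval -2.14 to -0.19, adjusted p = 0.0586) and -0.91 in total RNA (-1.89 to 0.064, adjusted p = 0.139). The authors' deposited table gives it q-values of 0.0151 and 0.038 for these 2 changes. Primitive endoderm markers were low as well: 8 of 11 were under 1 RPKM in every group, and their summed level was 9.54 RPKM in nuclear dox, 16.6 in nuclear no dox, 14.4 in total dox and 22.7 in total no dox. The 3 tested genes, led by Lama1, were lower with the dox label in both kinds of RNA, where 26.3% and 22.8% of all tested genes were. With the exon length trend removed 2 of the 3 were lower in nuclear and 3 in total RNA. The 8 low markers went in both directions, and the factor gene Gata4 averaged 0.266, 0.111, 0.49 and 0.208 RPKM in the same order of groups, higher with the dox label. The part of these markers in the Fgfr2 values was not tested.

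Etv5, an ETS factor of the PEA3 group (chromosome 16, 22381309-22439719, minus strand, 4103 bp of exon), averaged 20.1 RPKM in nuclear dox, 9.44 in nuclear no dox, 18.4 in total dox and 7.94 in total no dox. Both dox-labelled means were high and both no-dox means low, with 95% intervals of 17.4 to 23.3 and 15.4 to 22.0 RPKM against 7.90 to 11.3 and 6.87 to 9.18. It rose 2.13-fold in nuclear RNA (a log2 change of 1.09, SE 0.15, adjusted p = 2.96e-05) and 2.32-fold in total RNA (a log2 change of 1.21, SE 0.15, adjusted p = 1.44e-05). Relative to genes of like exon length it was higher by 0.72 and 0.86, and it was the one member called higher in both kinds of RNA after both the length trend and the length and GC trends were removed. Quantile normalization ended the nuclear call (log2 0.22, adjusted p = 0.224). Its changes stood at the 76.8th and 84.3th percentile of all tested genes.

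Etv4, its close relative (chromosome 11, 101769742-101785371, minus strand, 3104 bp of exon), averaged 10.4 RPKM in nuclear dox, 5.48 in nuclear no dox, 3.53 in total dox and 1.63 in total no dox. The 4 means were spaced in that order, each beyond the 95% interval of the difference from its neighbour. It rose 1.89-fold in nuclear RNA (a log2 change of 0.92, SE 0.16, adjusted p = 0.000154) and 2.16-fold in total RNA (a log2 change of 1.11, SE 0.16, adjusted p = 3.46e-05). The fitted trend at its exon length was 0.63 and 0.54, and relative to it Etv4 was at 0.29 (adjusted p = 0.12) and 0.58. With the length and GC trends removed its changes became 0.009 and 0.36, and neither was called (adjusted p = 0.963 and 0.0617). Quantile normalization also ended the nuclear call.

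Dusp6, the cytoplasmic phosphatase that acts on ERK (chromosome 10, 99263231-99267489, plus strand, 3132 bp of exon), averaged 3.64 RPKM in nuclear dox, 2.48 in nuclear no dox, 4.83 in total dox and 2.14 in total no dox. Total dox was the highest group and the no-dox groups were the lowest and close to each other. It rose 2.25-fold in total RNA (a log2 change of 1.17, SE 0.16, adjusted p = 2.15e-05) and 1.47-fold in nuclear RNA (a log2 change of 0.55, SE 0.16, adjusted p = 0.00622). The fitted trend at its exon length was 0.62 in nuclear RNA, which left Dusp6 at -0.066 and no longer called. In total RNA the trend was 0.53, which left Dusp6 at 0.64 and still called higher.

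Dusp4, a nuclear phosphatase of ERK and related kinases (chromosome 8, 34807297-34819894, plus strand, 2740 bp of exon), averaged 2.82 RPKM in nuclear dox, 1.25 in nuclear no dox, 0.539 in total dox and 0.248 in total no dox. In total RNA that is about 16.8 and 10.9 reads per library, against 83.5 and 58.6 in nuclear RNA, and its residual SD of 0.36 on the log2 scale was above the median of 0.20 over all tested genes. The 95% intervals of the 4 groups did not overlap, with 2.08 to 3.83, 0.858 to 1.81, 0.371 to 0.783 and 0.183 to 0.337 RPKM. It rose 2.26-fold in nuclear RNA (a log2 change of 1.18, SE 0.32, adjusted p = 0.00531) and by 1.11 on the log2 scale in total RNA (SE 0.32, adjusted p = 0.00818). Both calls ended with the length trend removed (0.45 and 0.51, adjusted p = 0.244 and 0.186).

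Spry2, a Sprouty protein that blocks receptor signalling towards RAS (chromosome 14, 105891947-105896819, minus strand, 2087 bp of exon), averaged 5.10 RPKM in nuclear dox, 4.77 in nuclear no dox, 3.5 in total dox and 2.30 in total no dox. The nuclear groups were the high ones and close to each other, and total no dox was the lowest. It rose 1.52-fold in total RNA (a log2 change of 0.60, SE 0.14, adjusted p = 0.00241), but the fitted trend at its exon length was 0.69, which turned its value to -0.088. The nuclear log2 change of 0.097 (95% interval -0.21 to 0.41, adjusted p = 0.562) was lower after removal of the length trend, at -0.81 (adjusted p = 0.000287).

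Spry4, another Sprouty protein (4755 bp of exon), averaged 7.94 RPKM in nuclear dox, 7.79 in nuclear no dox, 6.55 in total dox and 3.71 in total no dox. Here 3 groups lay close together, with neighbours not differing beyond the 95% interval, and total no dox was lower. It rose 1.77-fold in total RNA (a log2 change of 0.82, SE 0.13, adjusted p = 0.000126), and by 0.54 relative to genes of like exon length. Removal of the length and GC trends ended that call (0.30, adjusted p = 0.0694). The nuclear log2 change was 0.028 (95% interval -0.26 to 0.32, adjusted p = 0.865), which turned negative under all 4 scalings and was called lower under quantile normalization (-0.64, adjusted p = 0.001) and with the length and GC trends removed (-0.46, adjusted p = 0.0101).

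Spred1, which brings the RAS inactivator neurofibromin to the membrane (chromosome 2, 117121374-117182279, plus strand, 6784 bp of exon), averaged 3.45 RPKM in nuclear dox, 9.53 in nuclear no dox, 3.99 in total dox and 7.26 in total no dox. Both dox-labelled means were low and both no-dox means high, the reverse of Etv5, and the highest interval with dox (3.42 to 4.67 RPKM) ended below the lowest without (6.39 to 8.24 RPKM). It fell 2.77-fold in nuclear RNA (a log2 change of -1.47, SE 0.14, adjusted p = 6.13e-07) and 1.82-fold in total RNA (a log2 change of -0.86, SE 0.14, adjusted p = 9.07e-05). The fitted trend at its exon length was near 0 (-0.10 and 0.005). The length and GC trends together came to -0.84 and -0.69, at a GC content of 41.2%. With both removed Spred1 was at -0.62 in nuclear RNA, still called lower, and at -0.17 in total RNA, not called (adjusted p = 0.295).

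**Figure D3:**
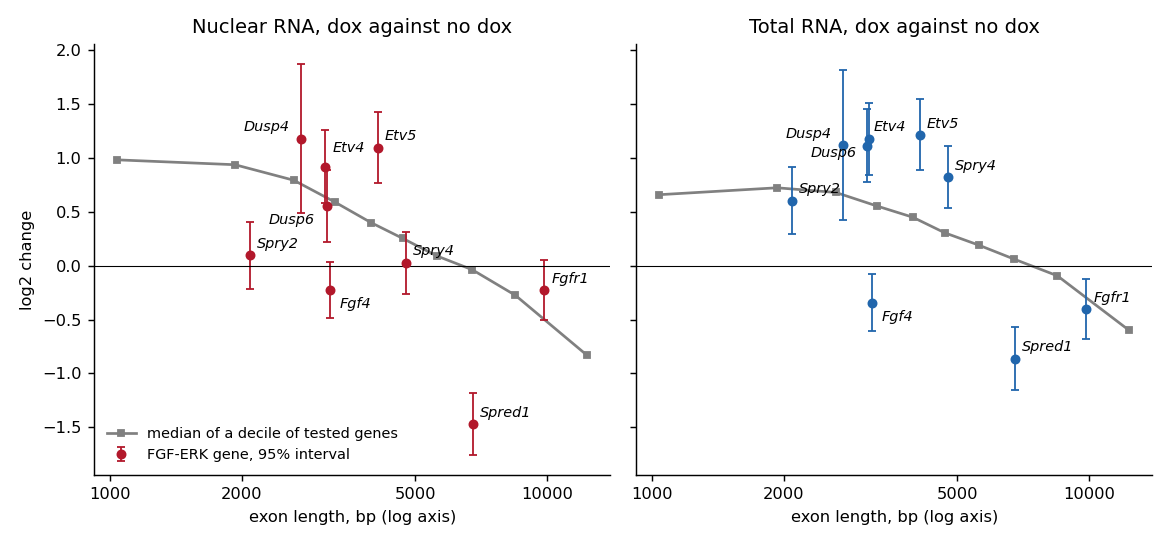
Log2 change from no dox to dox against exon length (log axis) for the 9 tested genes with 95% intervals, and the median of each decile of all tested genes by exon length (grey squares), for nuclear RNA (left) and total RNA (right). The grey line falls from 0.98 to -0.83 in nuclear RNA; Etv5 lies above it and Spred1 and Fgf4 below it in both panels, while Dusp6 lies on it in nuclear RNA.

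The difference of the dox effects, nuclear less total, was called for 0 of the 9 tested members and for 0% of all tested genes with limma, where 1338 of 10197 genes and 4 of the 9 members had an unadjusted p below 0.05. All 4 had the lower value in nuclear RNA. For Spry4 the difference was -0.79 (SE 0.19, adjusted p = 0.103), and it was called under quantile normalization (adjusted p = 0.0297) and among the genes with at least 5 RPKM (adjusted p = 0.0436). The values were -0.62 for Dusp6 (adjusted p = 0.245), -0.61 for Spred1 (adjusted p = 0.191) and -0.51 for Spry2 (adjusted p = 0.306). For Etv5 the difference was -0.12 (95% interval -0.59 to 0.35) and for Fgf4 0.11 (-0.26 to 0.48). A dox effect called in total RNA alone, as for Spry2, Spry4, Fgf4 and Fgfr1, was thus not shown to differ from that in nuclear RNA.

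The comparison of nuclear with total RNA asks which transcripts take a larger share of nuclear than of total RNA. Total RNA came from whole cells and so includes nuclear RNA, and retention in the nucleus was not measured. Several feedback genes were higher in the nuclear fraction, at 5-fold for Dusp4, 3.36-fold for Etv4, 2.10-fold for Spry4, 2.07-fold for Spry2 and 1.31-fold for Spred1 without dox, while Fgf4 was 2.57-fold lower there. Without dox 5 of 9 tested members were higher in nuclear RNA, where 4.01% of all tested genes were, and 1 was lower, where 34.7% of all genes were. With the dox label 3 of 9 were higher (Dusp4, Etv4 and Spry2; 5.84% of all genes) and Fgf4 alone was lower (34.8% of all genes). The members' medians were 0.39 without and 0.13 with dox, those of all tested genes -0.31 and -0.32. Dusp4 was tested only because its nuclear level was above 1 RPKM, so it had to be the higher one in nuclear RNA; without it 4 of 8 members were higher without dox and 2 of 8 with dox, with medians of 0.32 and 0.001. RPKM are shares of a library, so these differences are between shares of nuclear and of total RNA, not between amounts per cell. Both nuclear-to-total comparisons use the groups already compared above.

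Dusp4 had a log2 difference of 2.32 (SE 0.32) without and 2.39 with dox, on few reads in total RNA and with its direction set by the filter on low values. Without that filter limma gave it adjusted p = 0.00142 without and 0.00128 with dox. The size of the Dusp4 difference depended on the settings: without dox it was 4.09 under quantile normalization and 0.85 with a pseudocount of 1 RPKM, where Etv4 was at 1.30 and Spry4 at 0.90. Etv4 was at 1.75 (SE 0.16, adjusted p = 3.61e-06) and 1.55 (adjusted p = 1.26e-05), the 99.1th and 98.7th percentile of all tested genes. Etv5, of the same factor group, was at 0.25 (95% interval -0.082 to 0.58) and 0.13 (-0.20 to 0.46), neither called. Without dox all 4 scalings called Etv5 higher, at 0.56 to 0.73. With dox, centring the means on the median of all genes (0.49) and removal of the length trend (0.44) called it higher. The other scalings did not. The Sprouty genes were alike without dox, Spry4 at 1.07 (SE 0.13, adjusted p = 5.03e-05) and Spry2 at 1.05 (SE 0.14, adjusted p = 0.000107). With dox Spry2 was at 0.54 (adjusted p = 0.00922) and Spry4 at 0.28 (95% interval -0.01 to 0.57, adjusted p = 0.113), which all 4 scalings called higher, at 0.49 to 0.65. Dusp6 was at 0.21 (-0.12 to 0.55) without dox, which all 4 scalings also called higher, at 0.53 to 0.61, and at -0.41 (adjusted p = 0.051) with dox. Spred1 was at 0.39 (adjusted p = 0.0338) without and -0.21 (95% interval -0.50 to 0.078) with dox. Fgf4 was at -1.36 (SE 0.12, adjusted p = 3.61e-06) and -1.24 (adjusted p = 9.92e-06). The calls for Etv4, Spry2 and Fgf4 held in both comparisons under every scaling tried, which were centring, quantile normalization and removal of the length or length and GC trends. Dusp4 is left out of this count because the filter had set its direction. Centring changed the split of all genes from 409 higher and 3539 lower to 1157 and 1569 without dox, and from 596 and 3549 to 1674 and 1381 with dox.

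**Figure D4:**
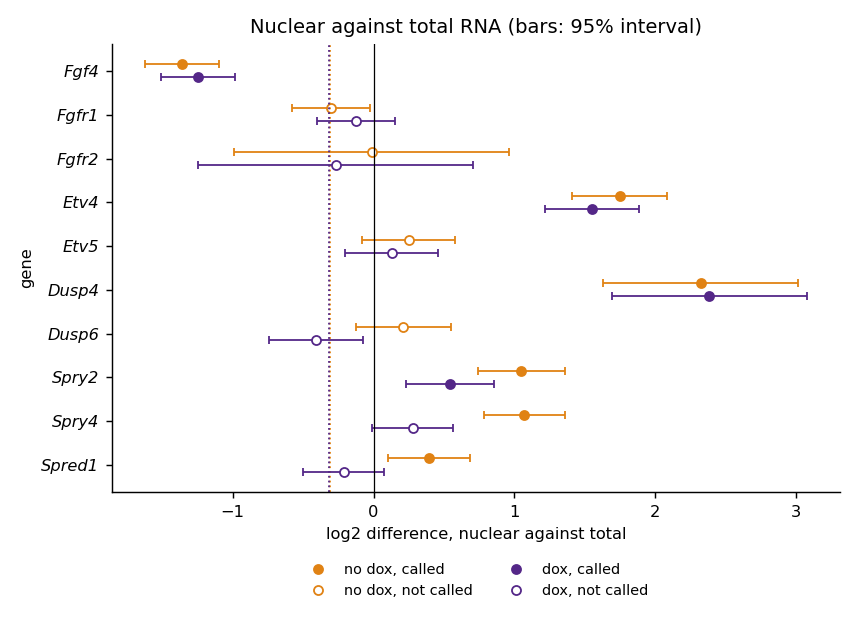
Log2 difference of nuclear from total RNA for each gene without dox (orange) and with dox (purple), with 95% intervals; filled points were called, and dotted lines mark the medians of all tested genes, -0.31 and -0.32. Dusp4 and Etv4 lie farthest to the right and Fgf4 farthest to the left in both conditions.

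Other genes of the pathway were counted by step, beside 43.1% of all tested genes higher and 26.3% lower in nuclear RNA and 41.5% and 22.8% in total RNA. With the length trend removed these shares were 31.8% higher and 30.9% lower in nuclear RNA and 31.3% and 29.1% in total RNA. Counts after that removal, here and in the next paragraph, stand beside the latter. The lists differ in exon length, and differences between lists were not tested. Adjusted values for the lists and their genes are given with the length trend alone removed, and the GC trend is left in. Among RAS GTPase activators, which switch RAS off, 4 of 5 tested genes were lower and 1 higher with the dox label in both kinds of RNA (median -1.5 in nuclear and -1.09 in total RNA). Their exons are long, 7320 to 15856 bp; with the length trend removed 2 of 5 were lower in nuclear and 1 of 5 in total RNA (medians -0.48 and -0.30). Rasa1 fell 3.40-fold in nuclear and 2.55-fold in total RNA, while Dab2ip rose 1.37-fold and 1.48-fold. In the RAS, RAF, MEK and ERK cascade 7 of 15 genes were higher and 3 lower in nuclear RNA, and 10 and 2 in total RNA (medians 0.32 and 0.63). Mapk3, which encodes ERK1, rose 3.65-fold and 2.68-fold, Hras rose 3.42-fold and 2.56-fold, and Braf, a RAF kinase, fell 5.28-fold and 5.68-fold. With the length trend removed 7 were higher and 2 lower in nuclear RNA and 7 and 3 in total RNA (medians 0.47 and 0.36), and Mapk3 (2257 bp of exon), Hras (3733 bp) and Braf (13862 bp) kept their calls in both. Among adaptors between receptor and RAS, 5 of 10 were higher and 2 lower in nuclear RNA and 6 and 1 in total RNA (medians 0.31 and 0.39). Grb2 rose 2.58-fold and 2.18-fold, and the exchange factor gene Sos1 fell 1.93-fold and 1.75-fold. Removal of the length trend left 5 higher and 2 lower in each kind of RNA (medians 0.31 and 0.30) and ended both Sos1 calls (adjusted p = 0.0753 and 0.0629).

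Other feedback inhibitors split, with 4 of 10 higher and 2 lower in each kind of RNA (medians 0.14 and 0.41). Dusp9, an ERK phosphatase, rose 4.33-fold in nuclear and 3.24-fold in total RNA, and Il17rd, the Sef inhibitor of FGF receptors, fell 2.14-fold and 1.73-fold. With the length trend removed 1 was higher and 3 lower in nuclear RNA and 4 and 3 in total RNA (medians -0.074 and 0.13). Of 20 tested ERK substrates and ERK-induced factors, 12 were higher and 2 lower in each kind of RNA (medians 0.69 and 0.78). Rps6ka1, a ribosomal S6 kinase gene, rose 4.56-fold and 3.08-fold, and Elk4, an ETS factor of serum response elements, fell 2.03-fold and 1.44-fold. With the length trend removed 6 were higher and 3 lower in nuclear RNA and 9 and 2 in total RNA (medians -0.01 and 0.23). Of heparan sulfate genes, 7 of 13 were lower and 3 higher in nuclear RNA, and 6 were lower and 0 higher in total RNA (medians -0.47 and -0.37). Glce, the epimerase of the chain, fell 2.35-fold and 2.67-fold, and Hspg2, which encodes perlecan, fell 2.11-fold and 2.23-fold. With the length trend removed 0 were higher in either kind of RNA and 5 and 7 were lower (medians -0.19 and -0.45), and the nuclear call of Hspg2 ended (adjusted p = 0.247). Of 17 other FGF ligands with a row, 2 were tested, Fgf15 and Fgf17, and of 8 other receptors and co-receptors Fgfrl1 alone, and none of the 3 was called with limma.

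**Figure D5:**
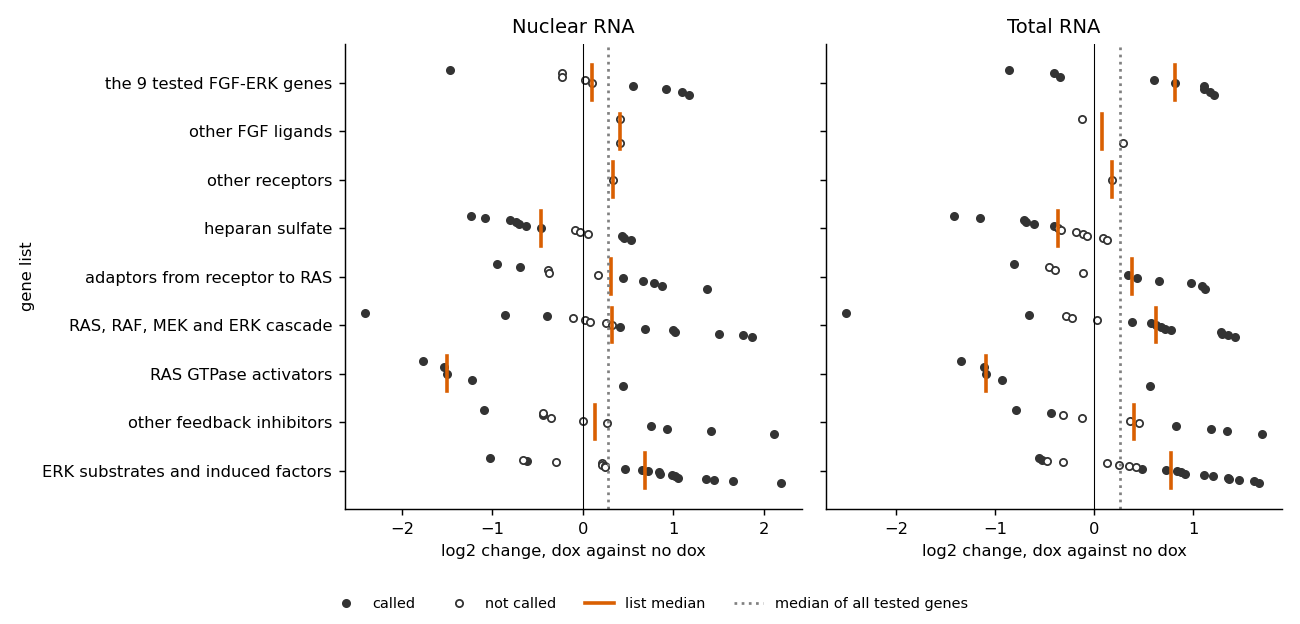
Log2 change from no dox to dox of each tested gene (points; filled where called) among the 10 genes described here (9 tested) and 8 other pathway lists, in nuclear RNA (left) and total RNA (right); orange bars are list medians and the dotted line is the median of all tested genes. RAS GTPase activators and heparan sulfate genes have medians below 0 in both panels (also with the length trend removed), and ERK substrates and induced factors have medians of 0.69 and 0.78.

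Markers of other cells that an ESC culture can hold also moved. Of 8 trophectoderm markers 4 were under 1 RPKM in every group, among them the defining factors Cdx2, Eomes and Elf5, with Cdx2 at 0 in all groups but total no dox (0.00212 RPKM). Of the 4 tested, 3 were higher with the dox label in each kind of RNA, where 43.1% and 41.5% of all genes were higher. With the length trend removed 2 of the 4 were higher in nuclear and 3 in total RNA, where 31.8% and 31.3% of all genes were. The summed level of the list was 30.3 RPKM in nuclear dox, 10.9 in nuclear no dox, 115 in total dox and 38.2 in total no dox, with Krt8 the highest, at 17.4, 4.4, 92.5 and 27.8 RPKM. Of 7 formative and primed markers 4 were under 1 RPKM in every group; of the 3 tested, led by Dnmt3b, 2 were higher in each, with summed levels of 15.1, 7.82, 18.8 and 9.94 RPKM. Of 6 fibroblast markers with a row 4 were under 1 RPKM in every group, among them Col1a1, Dcn and Pdgfrb. Of the 2 tested, Vim was higher and Fn1 lower in each. The summed levels were 50.7, 62.8, 73.6 and 80.0 RPKM. Of these, Fn1 made up 23.4, 53.1, 26.7 and 63.8 RPKM and Vim 26.6, 9.34, 46 and 15.4 RPKM. No marker of these lists that is in the table was at 0 in every group. Their part in the values of the 10 genes was not tested.

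Among all tested genes, those whose pattern over the 4 groups was most like a member's were found by the root mean square difference of log2 means, each gene centred on its own mean. For Etv5 these were Zcchc17 (0.00505), St6galnac6 (0.0278) and Ranbp1 (0.0339), and 99 genes lay within 0.1. For Dusp6 they were Mcee (0.0112), Gmnn (0.0333) and Kcmf1 (0.0415), with 29 genes within 0.1. Fgf4 was most like Epha2 (0.00939), Kremen1 (0.0338) and Slc35b4 (0.0367), with 34 within 0.1. Fgfr1 was most like Tmem185b (0.0326), Rbm7 (0.0356) and Txndc11 (0.0365), with 107 within 0.1. With 4 means a gene, likeness of this kind is a description of these columns.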

How the data were processed

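Reads were demultiplexed and mapped with tools that the submitters' processing notes name as bcl2fastq 2.17.1 and TopHat, on mm10. Per the file headers, the authors computed RPKM, took log2(RPKM + 0.001) and fitted an ANOVA in Partek 6.6. Deposited are the group means on the log2 scale, p-values, q-values, the ratio and a signed fold change (read here as a score). The gene annotation, the counting and its use of strand are not given in the sources used here. Each gene's residual SD was recovered from its 2 deposited p-values and differences of means; with 6 degrees of freedom both gave the same SD within 0.001 (log2) for 100% of 17277 genes, with 5 or 7 for 11.2% and 13.3%. This stands for 10 of the 12 listed libraries. limma 3.58.1 in R 4.3.3 moderated the variances with a trend over the mean level (median prior degrees of freedom 7) across all genes, on the genes with at least 1 RPKM in at least 1 group (10197). P-values were adjusted by Benjamini-Hochberg over all of them, and the threshold was 0.05. Levels in RPKM are geometric means. Depths were read from whole-read steps of genes seen in 1 library, within 0.1 M reads. The procedure was tested on simulated data. Exon lengths and GC content were taken from GENCODE gene models on mm10, with a value for 10013 of the tested genes. Trends were fitted by robust local regression (loess) of the log2 changes on log exon length, or on exon length and GC content in turn, and subtracted. The members and gene lists were chosen with earlier results of these data known. Named beside the members were, per pathway list, up to 2 called genes with the highest and 2 with the lowest change; the 3 genes most like Fgf4, Fgfr1, Dusp6 and Etv5; Ago2; and the highest gene of each marker list. Alternatives were other filters, variance moderation, scalings, pseudocounts (0.1 and 1 RPKM) and removal of trends on exon length and GC.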

Additional observations from a re-analysis of the deposited data

How the results depend on the processing

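No paired analysis was possible because the deposited columns are group means without replicate numbers. For the same reason leaving out single libraries was not run. In nuclear RNA with the dox label, 4 members were higher and 1 lower as deposited. At a minimum of 5 RPKM, which leaves out Dusp4 and Dusp6, 2 members were higher, where 65.2% of all genes were. Higher calls numbered 2 under quantile normalization (35% of all genes), 1 with the length trend (31.8%) and 1 with the length and GC trends removed (29.5%). Lower calls there numbered 3 with centred means (29.9% of all genes), 4 under quantile normalization (29.4%), 3 with the length trend (30.9%) and 5 with both trends removed (28%). In total RNA 2 members stayed higher with both trends removed (29.8% of all genes). The difference of the dox effects had 1 lower call at 5 RPKM (0.245% of all genes) and 1 under quantile normalization (0.118%). In nuclear against total RNA with dox, 5 members were higher with centred means (16.4% of all genes) and 5 with the length trend removed (12.4%), and 2 were lower without moderation (28.8%) and 2 with moderation without a trend (33.2%). The cause of these shifts was not tested, apart from the smaller set at 5 RPKM.

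Signs turned as follows in nuclear RNA with the dox label: Fgfr1 to 0.23 with the length trend removed; Dusp6 to -0.066 with the length trend and -0.044 with both trends removed. Spry2 went to -0.048 with centring, -0.34 with quantiles, -0.81 with the length trend and -0.50 with both removed, and Spry4 to -0.12, -0.64, -0.21 and -0.46. In total RNA Spry2 went to -0.088 with the length trend removed. The difference of the effects turned for Dusp4 (-1.68 with quantiles, -0.064 with the length trend, -0.14 with both removed) and for Etv4 (0.025 with a pseudocount of 1 RPKM). In nuclear against total RNA, Fgfr1 turned to 0.019, 0.098, 0.017 and 0.041 without dox and to 0.24, 0.15, 0.34 and 0.26 with dox under the same 4 scalings, and Spred1 with dox to 0.15, 0.14, 0.19 and 0.22. Dusp4 in total RNA and Fgfr2 in every group rest on few reads.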

Other observations

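Some pathway genes outside the 10 were also higher in nuclear than in total RNA; those named here were chosen after their values were seen. Fgf17, a ligand of the Fgf8 group, averaged 5.02 RPKM in nuclear dox, 3.78 in nuclear no dox, 1.56 in total dox and 1.28 in total no dox. Its nuclear level was 2.97-fold higher without dox and 3.21-fold higher with dox (limma adjusted p = 0.000166 and 0.000109). Myc, an ERK-induced factor, was 3.76-fold higher in nuclear RNA without dox and 1.95-fold with dox (adjusted p = 1.89e-05 and 0.00293). Egr1, an immediate early gene, was 2.67-fold higher without dox (adjusted p = 4.53e-05) and 1.24-fold with dox (adjusted p = 0.169). Of 20 tested ERK substrates and induced factors 3 were higher and 9 lower in nuclear RNA without dox, where 4.01% of all tested genes were higher and 34.7% lower, and Jun was 4.84-fold lower (adjusted p = 4.29e-06).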
